A study of Homo sapiens with 2 samples.

Results

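Aminoacyl-tRNA synthetases are the enzymes that load each transfer RNA with its amino acid, and their genes were followed here through 1 RNA sequencing library and 1 ribosome profiling library of the same kind of cell. A row of the deposited gene table belongs to the set when its gene column holds one of 39 symbols, and all 39 have a row among 23608. They comprise 20 cytosolic enzymes or enzyme subunits, 16 mitochondrial enzymes, whose symbols end in 2, and 3 scaffold genes of the cytosolic complex, AIMP1, AIMP2 and EEF1E1. AIMP2 ends in 2 but is a scaffold, and it was kept with the scaffolds. GARS and KARS each encode both the cytosolic and the mitochondrial form of their enzyme and were counted as cytosolic.

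The cells were SW13, a long-established line of human adrenal adenocarcinoma cells. Both libraries come from cells transfected with the plasmids Add2-Mhrt779 and Add2-Hotair, which carry murine long non-coding RNAs. The labels give 5 µg of plasmid, 10000000 cells at 80% confluence, Lipofectamine, medium with 10% serum and harvest at 48 h. One library was made from total RNA and the other from RNA fragments that ribosomes shield from nuclease, so the comparison asks how ribosome-protected fragments relate to transcript level gene by gene. Each group is 1 library of 1 transfected line, so no value below has a spread between cultures and no effect of the long non-coding RNAs can be read from it.

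As background, each enzyme recognises 1 amino acid and the transfer RNAs that decode it, and joins them in a reaction that uses ATP. The enzymes fall into 2 unrelated folds, class I and class II. In animal cells a group of the cytosolic enzymes sits together in a multi-synthetase complex held by the 3 scaffold proteins, while others work free in the cytosol. Mitochondria use a separate set, encoded in the nucleus, made on cytosolic ribosomes and imported. Transcription of many cytosolic synthetase genes is known to be raised by ATF4 when amino acids are short, through a DNA element shared by C/EBP and ATF factors.

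That element is shown here because it was found more often in the promoters of cytosolic than of mitochondrial members, a count that uses no measured level. RefSeq promoter windows on GRCh38.p14, running from 250 bases before to 50 bases after an annotated gene start, matched 33 of the 39 members by symbol (16 cytosolic, 14 mitochondrial and 3 scaffold genes). Both strands were searched for TGATGNAA and for its narrower form TGATGCAA, every match of which is also a match of TGATGNAA. TGATGNAA occurred in a window of 7 of 16 cytosolic genes (43.8%), 1 of 14 mitochondrial genes (7.14%) and 0 of 3 scaffold genes. The shares in the whole set were 4.46% of 27305 genes with a window and 3.62% of 35116 windows of the same length. A member counted once if any of its windows matched, so the share of genes is the like comparison. TGATGCAA occurred in a window of 6 of 16 cytosolic genes (37.5%) and 0 of 14 mitochondrial genes. Its shares in the whole set were 1.08% of genes and 0.866% of windows. The narrower form was chosen after the matches had been seen. The windows with a match are printed 5′ to 3′ on the strand of the gene, with the 8 matched bases in capitals. A match to the opposite strand therefore appears as the reverse complement.
AARS: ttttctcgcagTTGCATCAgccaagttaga
CARS: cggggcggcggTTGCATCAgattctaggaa
GARS: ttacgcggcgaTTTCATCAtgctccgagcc
IARS: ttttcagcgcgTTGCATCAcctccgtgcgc
MARS: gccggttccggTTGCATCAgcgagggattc
NARS: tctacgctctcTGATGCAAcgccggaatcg
TARS: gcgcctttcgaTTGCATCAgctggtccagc
YARS2: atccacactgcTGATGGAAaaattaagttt
On GRCh38.p14 the AARS window is chr16:70289675-70289704 (minus strand), that of CARS chr11:3057407-3057436 (minus) and that of GARS chr7:30594834-30594863 (plus). IARS lies at chr9:92293692-92293721 (minus) and MARS at chr12:57488053-57488082 (plus). NARS lies at chr18:57621804-57621833 (minus), TARS at chr5:33440956-33440985 (plus) and YARS2 at chr12:32756076-32756105 (minus). A match is a run of letters and not a binding site, and no binding was measured.

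The 6 cytosolic genes with TGATGCAA in a window had RNA sequencing levels of 6.70 to 25.8 FPKM (median 19.4). The 10 cytosolic genes with a window but no match had 5.46 to 26.6 FPKM (median 13.8). FPKM is the number of fragments scaled by transcript length and by the size of the library. The ranges of the 2 sets overlapped, with CARS at the low end of the 6, while the median was higher with the match. In ribosome profiling the medians were 38.6 FPKM with the match and 26.8 FPKM without it. The median ratios, defined below, were 0.57 and 0.39. Membership was not tested against level.

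A few facts of the libraries touch every value below. Of the 23608 rows, 13990 were above 0 FPKM by RNA sequencing and 11423 in ribosome profiling. Rows of small RNAs made up 88.7% of summed FPKM for total RNA and 96.8% for ribosome-protected RNA, so sums over the whole table were not used as a scale. All 8 adrenal cortex markers were listed at 0 in both libraries, as were all 4 leukocyte markers by RNA sequencing, so the labelled adrenal origin is not visible in those genes. Of the other lists, 4 of 5 fibroblast markers and 2 of 3 endothelial markers were at 0 by RNA sequencing, and of the 4 epithelial markers EPCAM and CDH1 were at 0 while KRT8 (41.9 and 69.7 FPKM) and KRT18 (57.2 and 139 FPKM) were present. VIM stood at 490 and 707 FPKM. SMARCA4 and SMARCA2, whose proteins SW13 is known to lack, had 3.99 and 0.677 FPKM and 1.72 and 1.75 FPKM. The depth behind the values can be estimated, because the quotient of a row's 2 FPKM values is a ratio of whole fragment numbers times 1 constant. The most frequent quotient was 1.56, and with it 55.3% of 6349 rows of low level came out as ratios of whole numbers up to 40, against 1.51% with 1.55 and 0.158% with 1.57. With lengths from GENCODE 29 this gives about 1630000 fragments for RNA sequencing and 1050000 for ribosome profiling. Constants that differ from 1.56 by a whole factor did about as well (55.7% of those rows with 0.78, 50.6% with 3.12), so the fragment numbers below are estimates under the most frequent quotient, and their intervals cover counting error only.

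Across the family, RNA and ribosome-protected fragments were both far more abundant for the cytosolic enzymes than for the mitochondrial ones. The 20 cytosolic genes ranged from 5.46 to 26.6 FPKM by RNA sequencing (median 16.9) and from 9.38 to 51.8 FPKM in ribosome profiling (median 28.4). The 16 mitochondrial genes ranged from 0.852 to 10.2 FPKM by RNA sequencing (median 3.32) and from a listed 0 to 18.6 FPKM in ribosome profiling (median 2.37). Summed, the cytosolic genes went from 333 to 606 FPKM, a factor of 1.82, and the mitochondrial genes from 60.5 to 73.3 FPKM, a factor of 1.21. The mitochondrial sum was thus 18.2% of the cytosolic sum by RNA sequencing and 12.1% in ribosome profiling. The factors of 1.82 and 1.21 are not centred, and the median tested gene, described below, stood at 1.31-fold with a pseudocount of 1 FPKM.

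**Figure D1:**
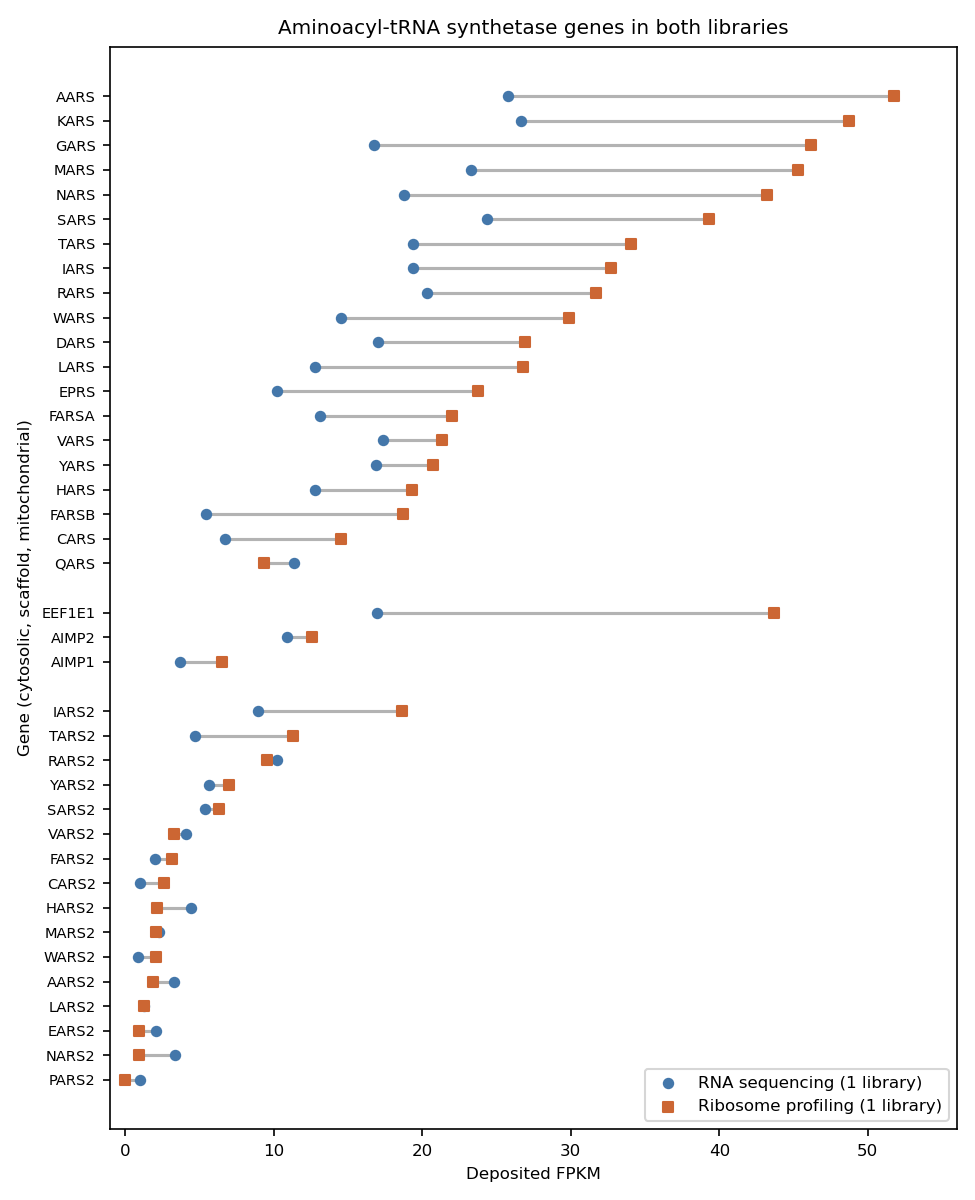
FPKM of the 39 synthetase and scaffold genes in the RNA sequencing library and in the ribosome profiling library, 1 library each, grouped as cytosolic, scaffold and mitochondrial. The cytosolic genes lie between 5.46 and 51.8 FPKM, and the mitochondrial genes reach at most 18.6 FPKM.

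To compare a gene's 2 values, log2((ribosome profiling FPKM + 1)/(RNA sequencing FPKM + 1)) was taken and its median over 2734 tested genes, those with a mean of at least 10 FPKM, was subtracted. That median was 0.39, or 1.31-fold, and every ratio below is relative to it unless said otherwise. Adding 1 FPKM shrinks the ratios of weakly expressed genes. In all, 23 of the 39 members passed the filter: the 20 cytosolic genes, IARS2, AIMP2 and EEF1E1. FARSB, CARS and IARS2 passed only through their ribosome profiling value, so a high ratio was a condition of their entry. QARS passed only through its RNA sequencing value, so a low ratio was a condition of its entry. RARS2, with a mean of 9.88 FPKM, lay just outside.

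On the deposited scale the cytosolic enzymes lay modestly above the median gene, and this side was not kept per coding length, as given below. Their median ratio was 0.43 (1.34-fold), with 17 of 20 above the median gene, where 50% of the 2734 tested genes are by construction, 51.5% of the tested protein-coding genes were and 48% of 1507 protein-coding genes in the same range of mean level were. Large differences were few: 2 of the 23 members, FARSB and GARS, exceeded the median gene at least 2-fold, against 13.1% of all tested genes and 9.93% of the tested protein-coding genes. None of the 23 was at least 2-fold below, against 19.7% and 14.8%. Among protein-coding genes in the range of mean level of the cytosolic genes, 8.76% were at least 2-fold above, close to the share of the members, and 17.1% below.

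FARSB, the beta subunit of phenylalanyl-tRNA synthetase, stood at 5.46 FPKM by RNA sequencing and 18.7 FPKM in ribosome profiling, a ratio of 1.22 (2.33-fold above the median gene). It had the lowest RNA level of the 20 cytosolic genes, resting on about 30 fragments against 66. Without a pseudocount that is 2.62-fold above the median gene, with an exact Clopper-Pearson 95% interval of 1.68 to 4.18. GARS, glycyl-tRNA synthetase, had 16.8 FPKM and 46.2 FPKM, a ratio of 1.02 (2.03-fold), from about 72 and 127 fragments (interval 1.56 to 2.85). Both intervals lay above the median gene on the deposited scale, though for FARSB a high ratio was a condition of entry. Per coding length the GARS interval was 0.956 to 1.74 and included the median gene.

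EEF1E1, a scaffold also known as p18, had 16.9 and 43.7 FPKM and a ratio of 0.93 (1.90-fold), but its row also names a read-through transcript with the neighbouring gene. NARS, which charges asparagine transfer RNA, had 18.7 and 43.2 FPKM and a ratio of 0.77 (1.71-fold). EPRS, the fused enzyme for glutamate and proline, had 10.3 and 23.7 FPKM and a ratio of 0.75 (1.68-fold). These were the next members in order, and their counting intervals overlapped those of FARSB and GARS.

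Of the 5 members highest by mean level, GARS has been described and the other 4 had ratios of 0.28 to 0.59. AARS, the alanine enzyme, was highest by mean level, with 25.8 and 51.8 FPKM and a ratio of 0.59. KARS, for lysine, had 26.6 and 48.7 FPKM (0.46). MARS, for methionine, had 23.3 and 45.3 FPKM (0.54). SARS, for serine, had 24.4 and 39.3 FPKM and a ratio of 0.28, with a counting interval that includes the median gene.

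At the low end stood QARS, glutaminyl-tRNA synthetase, with 11.4 FPKM by RNA sequencing and 9.38 FPKM in ribosome profiling. It was the single cytosolic gene with the lower value in ribosome profiling, and its ratio of -0.64 is 1.56-fold below the median gene. It rests on about 53 and 28 fragments, and the interval of 0.987-fold to 2.61-fold below narrowly includes the median gene. YARS, for tyrosine, had 16.9 and 20.8 FPKM (-0.11), and VARS, for valine, 17.4 and 21.4 FPKM (-0.10). The VARS row lies on an alternate haplotype contig of chromosome 6, where copies of the gene can divide its fragments. AIMP2 had 10.9 and 12.6 FPKM (-0.20), and HARS, for histidine, 12.8 and 19.3 FPKM (0.17). None of these had a counting interval that leaves out the median gene.

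The remaining cytosolic genes spanned ratios of 0.23 to 0.63. LARS, for leucine, had 12.8 and 26.8 FPKM (0.63), CARS, for cysteine, 6.70 and 14.5 FPKM (0.62), and WARS, for tryptophan, 14.6 and 29.9 FPKM (0.60). TARS, for threonine, had 19.4 and 34.0 FPKM (0.39), and IARS, for isoleucine, 19.4 and 32.7 FPKM (0.34). For CARS a high ratio was a condition of entry. The intervals of all 5 genes lay above the median gene, those of CARS, IARS and TARS narrowly. FARSA, DARS and RARS, for phenylalanine, aspartate and arginine, had ratios of 0.32, 0.25 and 0.23 and intervals that include it. On the deposited scale, the counting intervals of 12 of 20 cytosolic genes lay above the median gene and those of 0 below. The shares of 2155 tested protein-coding genes were 29.1% and 26.2%. Per coding length, as given below, 4 of the 20 lay above and 3 below.

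Of the members, 25 have the status OK in the authors' deposited table, and 0 of the 25 were called significant, against 1.3% of 4849 such rows. The authors' deposited table gives FARSB 1.78 on the log2 scale (not centred, standard error 0.89, p = 0.0463, q = 0.347), the 1 member with a p under 0.05, against 14.2% of rows. For GARS the authors' deposited table gives 1.46 (standard error 0.90, q = 0.442), and for QARS it gives -0.28 (standard error 0.87, q = 0.911). In the authors' deposited table EEF1E1 has a q of 0.502, NARS of 0.539 and EPRS of 0.536. These standard errors come from the authors' model and are several times larger than counting error alone, whose median was 0.22 on the log2 scale for the cytosolic genes.

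**Figure D2:**
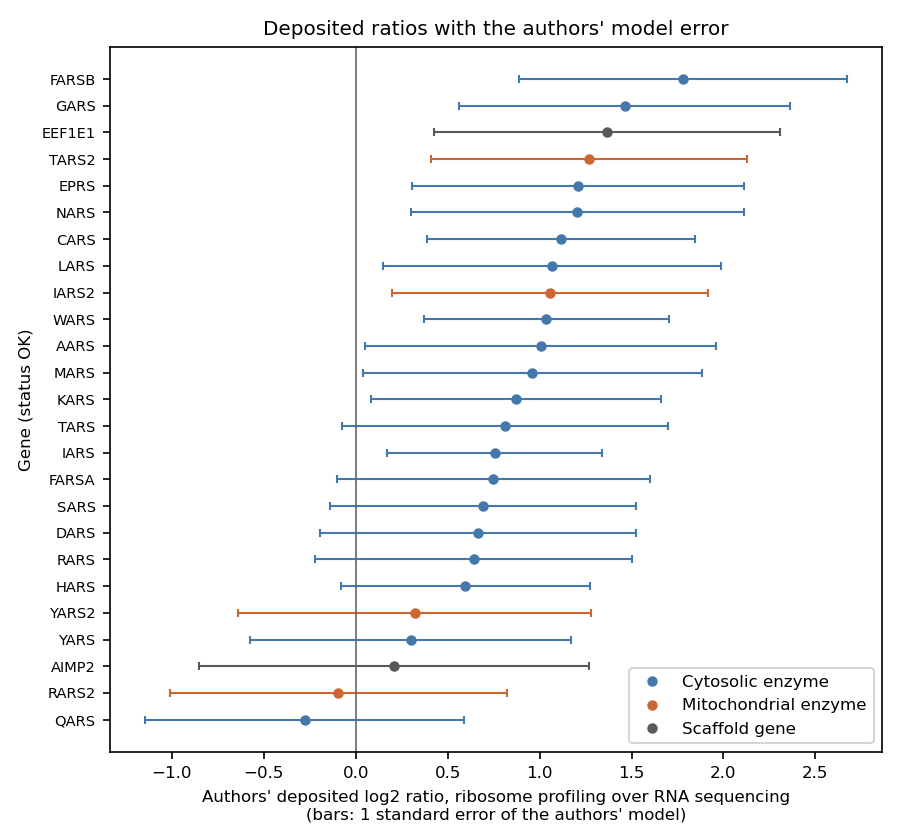
Ribosome profiling relative to RNA sequencing, as log2 in the authors' deposited table, for members with the status OK, with bars of 1 standard error of the authors' model and no centring. The values run from -0.28 for QARS to 1.78 for FARSB, and 0 of the 25 members were called significant.

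On which side of the median gene the cytosolic genes lie, and how far from it, depended on the length used. Ribosomes cover the coding sequence, whereas FPKM is scaled by transcript length, so the coding share of a transcript enters the ratio. On GENCODE 29 transcripts the coding share had a median of 82.8% for the cytosolic genes and 75.5% for the mitochondrial genes of at least 1 FPKM, against 53.9% over 2155 tested protein-coding genes. With ribosome profiling FPKM divided by that share, an alternative added after the data had been seen, the cytosolic median was -0.10 in place of 0.43, and 6 of 20 were above the median gene in place of 17. Counting intervals then lay above for 4 of 20 cytosolic genes (FARSB, NARS, TARS and WARS) and below for 3 (QARS, RARS and VARS), against 32.2% and 28.8% of tested protein-coding genes.

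FARSB kept a ratio of 1.16 per coding length, WARS had 0.75, NARS 0.72 and TARS 0.41. These 4 genes have some of the lowest coding shares of the cytosolic set, between 45.7% and 53.0%. GARS, with a coding share of 84.2%, dropped to 0.31, and EPRS, with 90.5%, to -0.07. QARS reached -1.34, or more than 2-fold below the median gene. QARS was thus lowest and FARSB highest of the cytosolic genes on both scales.

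**Figure D3:**
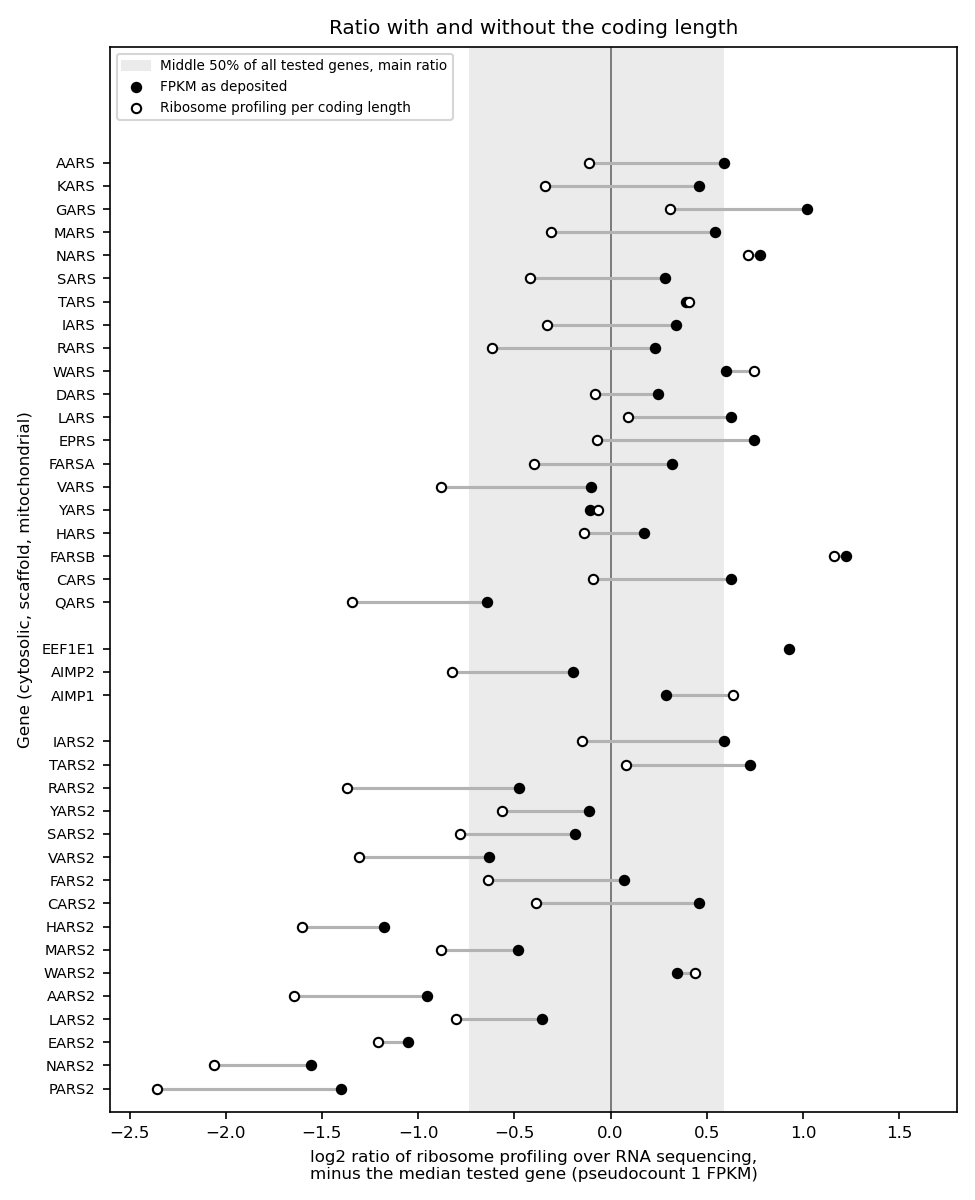
Centred log2 ratio of each member from FPKM as deposited (filled points) and with ribosome profiling per coding length (open points), joined by a line. EEF1E1 has no coding-length value, the points of PARS2, listed at 0 in ribosome profiling, rest on the pseudocount, and the shaded band holds the middle 50% of all tested genes on the deposited scale. Most cytosolic genes move to the left, while FARSB, NARS, TARS, WARS and YARS barely move or move right.

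Annotated start codons are shown for some genes high, middle and low in the order of ratios, not for all genes at either end. The bases around the start codon are known to affect how often ribosomes begin there. Each line is taken from a GENCODE 29 transcript on GRCh38, 5′ to 3′ on the strand of the gene, 10 bases before the start codon to 7 after it, with the start codon in capitals.
FARSB: tcgacacaccATGccgactg
GARS: ccgcaggctcATGccctctc
NARS: cactgcaggcATGgtgctag
AARS: gactttcaagATGgactcta
YARS: tagcggagccATGggggacg
QARS: tgtctctgcaATGgcggctc
TARS2: gtgaaggaacATGgccctgt
NARS2: cggacgcgggATGctggggg
A purine 3 bases before the start codon was present in 17 of 20 cytosolic genes and 13 of 15 mitochondrial genes with enough sequence, against 91.3% of 2088 tested protein-coding genes. A G straight after the start codon was present in 12 of 20 and 9 of 15, against 52.9%. No order by ratio appears in this base among the genes shown: FARSB, GARS and NARS2 carry c after the start codon, and NARS and QARS carry g. GARS and KARS encode both forms of their enzyme, and these counts use the start codon of the annotated transcript alone. For GARS that start codon may belong to the mitochondrial form, so its bases need not describe the cytosolic form.

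An ATG upstream of the start codon was present in the annotated transcript of 13 of 20 cytosolic genes and 5 of 16 mitochondrial genes, against 42.1% of 2155 tested protein-coding genes. The median ratio was 0.60 for the 13 cytosolic genes with one and 0.32 for the 7 without. Across the 20 cytosolic genes Spearman's rho of the ratio was 0.35 with the number of upstream ATGs, 0.30 with transcript length, 0.18 with mean FPKM and -0.0015 with coding share. The points share both libraries, and these values are descriptions without a test.

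The multi-synthetase complex holds 8 of the cytosolic enzymes, EPRS, IARS, LARS, MARS, QARS, RARS, KARS and DARS, with the 3 scaffolds. Its 10 genes that passed the filter had a median ratio of 0.40, and the 12 free cytosolic enzymes had 0.49. RNA levels of the 8 complex enzymes differed by at most 2.60-fold, from EPRS to KARS. In ribosome profiling they differed by up to 5.19-fold, with QARS lowest and KARS highest. QARS rests on about 28 ribosome-protected fragments, and the next lowest was EPRS with 23.7 FPKM, against 48.7 FPKM for KARS. The wider range in ribosome profiling thus rests on QARS alone. Per coding length the 8 complex enzymes had a median of -0.32 and the free enzymes -0.08. AIMP1, the scaffold that also binds transfer RNA, had 3.72 and 6.55 FPKM and a ratio of 0.29, and did not pass the filter.

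FARSA and FARSB form one enzyme with an equal number of alpha and beta subunits, so their levels can be set side by side. FARSA had 13.1 FPKM by RNA sequencing and 22.002 FPKM in ribosome profiling, against 5.46 and 18.7 FPKM for FARSB. FARSA RNA was 2.40-fold higher, whereas the ribosome profiling values differed 1.17-fold. Per coding length FARSB was 1.36-fold above FARSA in ribosome profiling. In log2 ratio, FARSB exceeded FARSA by 1.03 in the authors' deposited table, with an error of 1.23 from both genes' standard errors and limits of -1.39 and 3.45 at 95%, so the difference is within the model's error.

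By fold, the 9 cytosolic class I genes had a median ratio of 0.34, with 6 above the median gene, and the 10 class II genes had 0.43, with 10 above. EPRS holds both folds and was left out. The 3 genes below the median gene, QARS, VARS and YARS, are all class I. Per coding length 2 of 9 class I genes and 4 of 10 class II genes were above the median gene. The difference between the medians, class II minus class I, was 0.09 and became -0.01 without QARS, without VARS and VARS2, or with status OK rows alone, so its direction rests on single genes.

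The mitochondrial enzymes were low in both libraries, and most lay below the median of genes with at least 10 FPKM. Centred instead on the median of all genes with at least 1 FPKM, 10 of 15 lay above it and their median ratio was 0.19, so their side depends on the genes used as reference. Of the 15 with a mean of at least 1 FPKM, 5 were above the median gene and the median ratio was -0.36 (1.28-fold below). In the same range of mean level, 7790 protein-coding genes had a median of -0.64, with 24% of them above that gene. In that range 35.3% were at least 2-fold below, where EARS2, HARS2 and NARS2 were here, and 3.75% at least 2-fold above, where none of the 15 was. EARS2 and NARS2 reached a mean of 1 FPKM only through RNA sequencing and WARS2 only through ribosome profiling, so these counts are a description of genes admitted in part by the library where they are high. Per coding length the same 15 genes had a median of -0.80, with 2 above the median gene and 6 below it by 2-fold or more, against a median of -0.75, 25.6% above and 41.2% at least 2-fold below for the genes of that range. The median difference between cytosolic and mitochondrial genes of at least 1 FPKM was 0.78, and 0.70 per coding length. Spearman's rho between ratio and mean FPKM over the 38 members of at least 1 FPKM was 0.58, so the level of a gene moves with this difference, and its part in it was not tested.

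IARS2, for isoleucine, was highest in ribosome profiling among the mitochondrial genes, with 8.95 and 18.6 FPKM, a ratio of 0.59 and about 51 and 68 fragments (interval 1.09-fold to 2.33-fold above the median gene). Its locus overlaps that of EPRS in the deposited table, chr1:220046619-220321383 with hg19 names, and the 2 rows may have shared fragments. TARS2, for threonine, had 4.70 and 11.3 FPKM and a ratio of 0.72 (interval 1.02-fold to 3.31-fold). These 2 were the mitochondrial genes with a counting interval above the median gene, and that of TARS2 starts too close to the median gene to settle its side.

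NARS2, for asparagine, had 3.37 FPKM by RNA sequencing and 0.942 FPKM in ribosome profiling, a ratio of -1.56. It rests on about 14 and 2 fragments, and without a pseudocount it was 5.87-fold below the median gene, with an interval of 1.35 to 53.3. AARS2, for alanine, had 3.27 and 1.89 FPKM (-0.95), from about 27 and 10 fragments (interval 1.06-fold to 5.25-fold below). These 2 were the mitochondrial genes with a counting interval below the median gene. That of AARS2 ends too close to the median gene to settle its side, and that of NARS2 rests on about 2 ribosome-protected fragments. As deposited, 37.1% of the 7790 protein-coding genes of that range had such an interval below the median gene and 5.52% above it.

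HARS2, for histidine, had 4.43 and 2.14 FPKM (-1.18) and EARS2, for glutamate, 2.08 and 0.944 FPKM (-1.05). Both were more than 2-fold below the median gene with intervals that include it. HARS2 and HARS share 1 locus in the deposited table, chr5:140053490-140078890. VARS2, with 4.08 and 3.29 FPKM (-0.63), lies like VARS on an alternate haplotype contig. PARS2, for proline, had 1.02 FPKM by RNA sequencing and was listed at 0 in ribosome profiling, so no fold is given.

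RARS2 had 10.2 and 9.55 FPKM (-0.48), and MARS2 2.31 and 2.10 FPKM (-0.48). LARS2 had 1.25 and 1.30 FPKM (-0.36), SARS2 5.37 and 6.34 FPKM (-0.18), and YARS2 5.63 and 7.02 FPKM (-0.11). FARS2 had 2.03 and 3.17 FPKM (0.07), WARS2 0.852 and 2.08 FPKM (0.34), and CARS2 1.00 and 2.61 FPKM (0.46). All 8 had counting intervals that include the median gene. Over the mitochondrial genes the median was 16 RNA fragments and 6.5 ribosome-protected fragments, and the median counting error was 0.68 on the log2 scale. Per coding length, the intervals of 5 mitochondrial genes lay below the median gene (AARS2, HARS2, NARS2, RARS2 and VARS2) and those of 0 above, against 32.9% and 10.9% of the 7790 protein-coding genes of that range.

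Setting each mitochondrial enzyme beside the cytosolic enzyme for the same amino acid gave 17 pairs, with EPRS paired to both EARS2 and PARS2 and FARS2 to both FARSA and FARSB. The cytosolic gene had the higher FPKM in all 17 pairs in both libraries. In RNA sequencing it was 1.99-fold (RARS over RARS2) to 17.1-fold (WARS over WARS2) higher, with a median of 4.94-fold. In ribosome profiling, over the 16 pairs with both values above 0, it was 1.76-fold (IARS over IARS2) to 45.9-fold (NARS over NARS2) higher, with a median of 6.72-fold. The pair for asparagine was 5.56-fold apart by RNA sequencing, so its gap widened most in the values as listed. NARS2 rests on about 2 ribosome-protected fragments, so neither the 45.9-fold value nor this rank is secure.

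Without a pseudocount the cytosolic lead was larger in ribosome profiling than by RNA sequencing in 11 of 16 pairs. It was smaller in 5, the pairs of CARS, IARS, TARS, WARS and YARS. With the pseudocount of 1 FPKM the cytosolic ratio was the higher in 15 of 17 pairs, IARS and TARS excepted, and per coding length with the pseudocount in 16 of 17, IARS excepted. Protein-coding genes in the range of mean level of the cytosolic genes had a median ratio of -0.04, and those in the mitochondrial range -0.64. Genes of these levels thus already differed in the direction of most pairs, and the part of level in these counts was not tested. Only 4 pairs have the status OK for both genes, and from the authors' deposited table their log2 ratios differed by -0.45 (TARS minus TARS2, 95% interval -2.87 to 1.96) to 0.74 (RARS minus RARS2, interval -1.73 to 3.21). None of the 4 intervals leaves out 0.

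**Figure D4:**
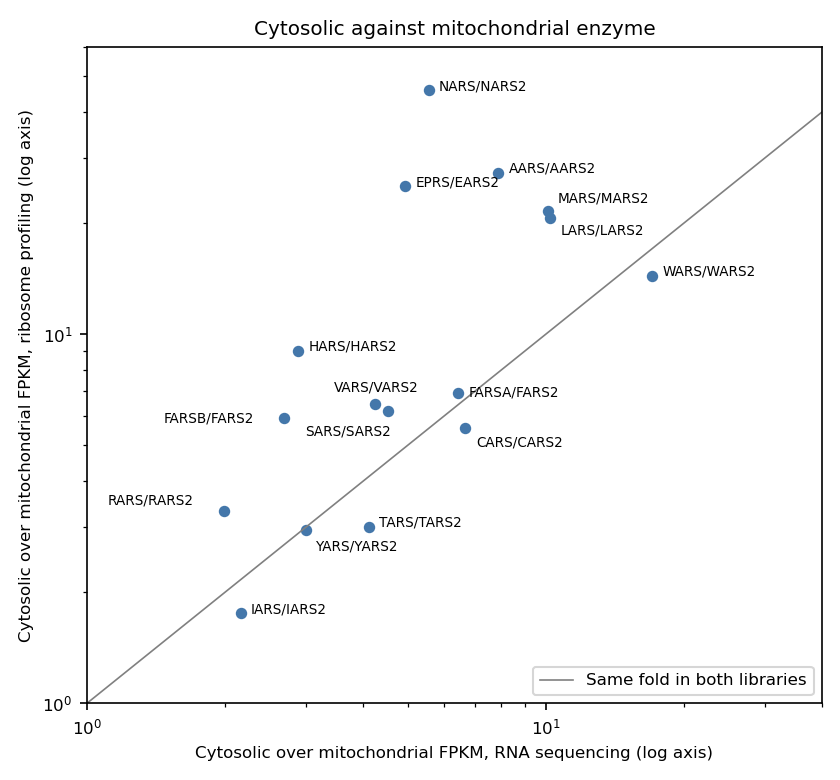
Fold by which the cytosolic gene exceeded its mitochondrial partner in FPKM by RNA sequencing (horizontal, log axis) and in ribosome profiling (vertical, log axis), with a line of equal folds. Of the 16 pairs drawn, 11 lie above the line and 5 below it, and the pair of EPRS and PARS2 is left out because PARS2 was listed at 0 in ribosome profiling.

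Genes that work next to the synthetases were taken from 6 lists. The shares of all tested genes at least 2-fold above (13.1%) and below (19.7%) stand beside each count of them, and with so few genes a list the counts are descriptions. SEPHS1 and PHGDH passed the filter only through ribosome profiling, and POP7, TRMT5 and SLC7A5 only through RNA sequencing, so their direction was a condition of their entry. The 4 mitochondrial charging partners, which make glutaminyl and formylmethionyl transfer RNA, were all below the median gene, with 0 of 4 passing the filter, at a level where 24% of protein-coding genes lie above it. PET112 had 1.91 and 1.28 FPKM, GATC 3.29 and 0.962 FPKM, QRSL1 3.12 and 1.77 FPKM, and MTFMT 2.62 and 2.04 FPKM. Their median ratio was -0.85.

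In the selenocysteine pathway, 1 of 2 genes that passed the filter was at least 2-fold above the median gene, SEPHS1, which belongs to the selenophosphate synthetase family. It had 6.63 FPKM by RNA sequencing and 52.8 FPKM in ribosome profiling, and the authors' deposited table calls it significant (log2 ratio 2.99, standard error 0.81, q = 0.0217). Among 8 genes of transfer RNA processing that passed, SSB, the La protein, was at least 2-fold above (16.0 and 65.6 FPKM), and POP7 (26.6 and 3.55 FPKM) and RPP21 (30.03 and 16.5 FPKM), protein subunits of RNase P, were at least 2-fold below. Among 4 genes of transfer RNA modification, TRMT5 was at least 2-fold below (15.5 and 5.11 FPKM). The list of synthetase-like and editing factors had 1 gene that passed, within 2-fold of the median gene.

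Of the 15 genes of amino acid stress transcription, 8 passed, 3 of them at least 2-fold above and 2 below the median gene. ASNS, asparagine synthetase, had 20.1 and 70.8 FPKM and is called significant in the authors' deposited table (q = 0.0314). PHGDH, the first enzyme of serine synthesis, had 5.50 and 30.1 FPKM, and SLC3A2, a subunit of amino acid transporters, 14.7 and 41.1 FPKM. SLC7A5, a partner of SLC3A2 in the transporter of large neutral amino acids, had 19.9 and 4.38 FPKM, and ATF4 had 36.8 and 21.3 FPKM. The genes of this list thus lay on both sides, with a median ratio of 0.03 among those that passed.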

How the data were processed

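The members and gene lists were chosen with earlier results of these data known. The deposited table holds 1 FPKM value per gene for each of 2 libraries, with the authors' log2 ratio, p-value and q-value, per the file headers. Per the submitters' processing notes, the tools included bedtools 2.16.1, TopHat2 2.0.8b, SAMtools 0.1.18 and Bowtie2 2.0.0.6, with the builds mm10 and hg19. Which program made the table, and with what settings, is not given in the sources used here. The deposited p-values match a two-sided normal test of the deposited statistic, so the standard error was taken as the log2 ratio over that statistic.

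Ratios used a pseudocount of 1 FPKM, a mean of at least 10 FPKM and centring on the median of 2734 tested genes. A 2-fold difference is a description, since each group has 1 library. Fragment numbers were estimated from FPKM quotients and GENCODE 29 lengths (11 members gave whole-number quotients, the others are rounded), with exact Clopper-Pearson 95% intervals. The folds in these intervals carry no pseudocount, whereas the median gene was taken with the pseudocount of 1 FPKM. Limits close to the median gene, as for TARS2, AARS2, CARS, IARS, KARS, TARS and QARS, therefore do not settle a side. PCR copies are not independent molecules. Coding shares and start contexts come from 1 GENCODE 29 transcript per gene, which can differ from the annotation behind the FPKM. Table starts are counted from 0 and are printed 1 higher. Any member could be named, with full statistics for the 5 highest and 5 lowest ratios, called members and the 5 of highest mean FPKM. The related genes named were those at least 2-fold from the median gene, and the mitochondrial partners were named after their values had been seen. Besides the 2 promoter motifs reported, 3 others were searched in exploration and are not reported. The ratio script was tested on simulated data. Python 3.11.15, pandas 2.3.3, NumPy 2.4.6, SciPy 1.17.1 and matplotlib 3.10.9 were used.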

Additional observations from a re-analysis of the deposited data

How the results depend on the processing

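No paired analysis was possible because each group has 1 library, and for the same reason no library could be left out. Of 13 alternatives, 3 were added after the data had been seen (ribosome profiling per coding length, without QARS, and without VARS and VARS2). The number of members at least 2-fold above the median gene, 2 as reported, was 0 with a pseudocount of 5 FPKM, 14 with a mean of at least 1 FPKM and centring on that wider set, 0 with a mean of at least 30 FPKM, 8 with no filter, 7 with no centring, 5 with libraries scaled to equal FPKM sums outside small RNA genes and 1 per coding length. The number at least 2-fold below, 0 as reported, was 1 with a mean of at least 1 FPKM, 2 with no filter and 1 per coding length. The mitochondrial median under the main filter, 0.59 from IARS2 alone, was -0.027 with no filter and -0.15 per coding length. Over mitochondrial genes of at least 1 FPKM, the median of -0.36 became 0.23 with status OK rows alone, which keeps 4 of them. It was also above 0 over the full set with centring on genes of at least 1 FPKM (0.19), with no centring (0.03) and with equal FPKM sums (0.0068). The complex median of 0.40 became -0.33 per coding length. The cause of these moves was not tested. The cytosolic minus mitochondrial difference was positive in all 12 alternatives that gave it, from 0.22 to 0.93. Centring cancels out of a difference of medians, so not all of these alternatives could move it. It stayed at 0.78 with a mean of at least 1 FPKM, no filter, no centring and centring outside small RNA genes. Of 271 values for single genes, 14 moved by over 1.5-fold, all per coding length, where 22 genes had a value. Only IARS (-0.33) and KARS (-0.34) moved by more than the gene's standard error in the authors' deposited table. Depth limits the mitochondrial genes most, since their ribosome profiling values rest on a median of 6.5 fragments.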
